A study of Mus musculus with 10 samples.

Results

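The subject is the set of mouse globin genes together with the globin chaperone Ahsp, 8 listed genes that were looked up in a table of 55359 gene identifiers through their symbols in the GENCODE annotation. Of these, 7 were paired with values, 4 coding for adult and 3 for embryonic chains. The annotation gives Ahsp the identifier ENSMUSG00000121605, which was paired with no value, so Ahsp was not analysed here. The table comes from RNA-seq of total RNA from lineage-negative (Lin−) bone marrow cells, which were obtained from mice with a lineage cell depletion kit, that is, by removing cells carrying surface markers of mature blood lineages. The comparison asks how these cells differ between Dhx9f/f mice (WT, 5 libraries) and Dhx9f/f;MX1 mice (cKO, 5 libraries), all homozygous for a loxP-flanked allele of the RNA helicase gene Dhx9. In cKO mice, Cre recombinase is under the Mx1 promoter, which responds to interferon, and is switched on by repeated injection of poly(I:C), a double-stranded RNA mimic. The GEO genotype label describes these samples as a Dhx9 knockdown. The paper's methods set day 7 from the start of dosing as the default time point, and its legend for a transplant experiment describes donors of both genotypes as dosed. Its legend for colony, apoptosis and cell cycle assays places all mice, WT and cKO, at day 7 from a first poly(I:C) dose. For the sequenced WT mice themselves dosing is not spelled out, so an effect of poly(I:C) may not be separable from one of genotype. Values are FPKM, fragment counts scaled to gene length and to the number of mapped fragments, and the depth read from single-transcript genes was 15028342 to 18623755 fragments (median 16493031) in WT and 13789920 to 17174709 (median 15822578) in cKO.

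The targeted gene was examined first. Dhx9 was at 69.0, 72.4, 72.2, 69.6 and 65.4 FPKM in libraries WT 1 to 5 and at 131, 149, 131, 156 and 132 FPKM in libraries cKO 1 to 5. All 5 cKO libraries were above all 5 WT libraries, so the targeted transcript was higher, not lower, where the label says knockout, and every direction given here is between libraries labelled cKO and libraries labelled WT. The log2 fold change of Dhx9 was 1.0 with a standard error of 0.0654 (adjusted p = 1.39e-05 by limma), which lies at the 2-fold limit used for calls. That call was kept under 12 of 23 alternatives (log2 fold change 0.89 to 1.11), and lost without WT 1, WT 4, WT 5, cKO 2 or cKO 4 at 0.96 to 1.0. Xist, the RNA that coats the inactive X chromosome of females, was at 99.2, 121 and 128 FPKM in WT 3, 4 and 5 and at most at 0.09 FPKM in the other 7 libraries. The Y-linked gene Ddx3y showed the opposite, at most 0.05 FPKM in WT 3 to 5 and 19.7 to 38.5 FPKM in the other 7. Sex-linked expression therefore divided the WT group and was not divided within the cKO group.

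Hemoglobin is built from alpha-like and beta-like globin chains in equal numbers, each carrying a heme. The alpha-like genes lie in a cluster on mouse chromosome 11 and the beta-like genes in another on chromosome 7, and in both clusters embryonic genes serve the first, primitive red cells of the yolk sac while adult genes serve the definitive red cells of fetal liver and marrow. Free alpha chains are unstable, and Ahsp binds them until a beta chain is available. Globin transcripts are low in stem and early progenitor cells and mount steeply as erythroid cells mature.

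The adult genes of each cluster are near copies, so a short read can often not be placed in a single one of them, and the stretches that tell them apart are printed here. Coding sequences were taken from the canonical transcripts of the GENCODE annotation of GRCm39, with positions counted from 1 at the A of the start codon. Hba-a1 and Hba-a2 differ at 1 of 426 coding bases, C381T, and Hbb-bs and Hbb-bt at 1 of 441, C417T, where the first base belongs to the first gene named. The stretches below cover coding bases 361 to 401 of the alpha-like and 397 to 437 of the beta-like genes, all in exon 3, and run 5′ to 3′ on the coding strand. Capitals mark the base that separates the near copies and, in the embryonic genes, every base that differs from Hba-a1 or Hbb-bs.
Hba-a1: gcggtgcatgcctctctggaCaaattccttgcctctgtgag
Hba-a2: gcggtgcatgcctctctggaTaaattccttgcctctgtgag
Hba-x: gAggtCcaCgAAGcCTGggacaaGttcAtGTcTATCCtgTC
Hbb-bs: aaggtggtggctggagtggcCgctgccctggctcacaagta
Hbb-bt: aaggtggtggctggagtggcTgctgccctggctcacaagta
Hbb-bh1: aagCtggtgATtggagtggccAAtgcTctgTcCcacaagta
Hbb-y: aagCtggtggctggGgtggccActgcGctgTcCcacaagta
In the same order they lie at chr11:32234323-32234363, chr11:32247140-32247180 and chr11:32227940-32227980 on the plus strand, and at chr7:103475879-103475919, chr7:103461870-103461910, chr7:103490966-103491006 and chr7:103501088-103501128 on the minus strand of GRCm39. Over the 41 bases, Hba-x differs from Hba-a1 at 20, and Hbb-bh1 and Hbb-y differ from Hbb-bs at 8 and 6. Over the whole coding sequence Hba-x shares 61.7% of its bases with Hba-a1, and Hbb-bh1 and Hbb-y share 73.9% and 74.4% with Hbb-bs, so embryonic chains are far easier to assign than the adult near copies. Of the 150-base windows of the canonical transcript, 61.0% in Hba-a1 and 72.1% in Hba-a2 occur unchanged in the other alpha gene, and 54.6% in Hbb-bs and 50.6% in Hbb-bt in the other beta gene. How the authors' counting treated such fragments is not given in the sources used here. The split within each adult pair is therefore uncertain, and fragments dropped at counting would be missing from the sums of a pair too; the effect on the alpha to beta ratios was not tested.

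All 4 adult chains passed as higher where the label is cKO, and 0 as lower, where a call needs a 2-fold change or more together with an adjusted p below 0.05. Over all 18742 genes tested, 4.60% were called higher and 16.8% lower. The 4 chains also did not overlap between groups, with every cKO library above every WT library, which held for 10.6% of the genes tested, while 21.6% had every cKO library below every WT library. The 3 embryonic chains were under the mean of 0.1 FPKM needed for the test. The 4 adult chains were at 1.63 FPKM or more in every library of either group, so none of them entered the test through cKO alone.

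Among the adult alpha chains, Hba-a1 (ENSMUSG00000069919; chr11:32233186-32234504) made up nearly all of the signal. It was at 191, 125, 424, 131 and 91.1 FPKM in WT 1 to 5. It was at 799, 776, 879, 515 and 504 FPKM in cKO 1 to 5. WT 3 stood well above the other WT libraries, cKO 4 and 5 were the lowest of their group, and the lowest cKO value was still above WT 3. The means were 192 ± 135 and 695 ± 173 FPKM (SD, n = 5 each). The log2 fold change, on log2(FPKM + 0.1) as everywhere here, was 2.04 (standard error 0.362, 95% interval 1.24 to 2.84, adjusted p = 0.00106 by limma).

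Hba-a2 (ENSMUSG00000069917; chr11:32246168-32247320), its near copy, was at 2.70, 1.63, 5.92, 2.16 and 3.99 FPKM in WT 1 to 5. It was at 15.1, 20.2, 25.9, 30.1 and 11.9 FPKM in cKO 1 to 5. The order differed from that of Hba-a1, since cKO 4 was the highest here and WT 5 the second among WT, but the groups again stood apart. For Hba-a2 the log2 fold change came to 2.68 (standard error 0.350, 95% interval 1.9 to 3.45, adjusted p = 0.000208 by limma). Hba-a1 exceeded it by 22.8 to 76.5 times in WT and 17.1 to 53.1 times in cKO libraries. Over a group, Hba-a2 had about 170 fragments in WT and 1040 in cKO, and Hba-a1 about 11495 and 39948. Because these copies share most of their sequence, the size of that gap and the fold change of Hba-a2 are uncertain. Whether fragments of Hba-a1 entered the values of Hba-a2 was not tested.

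Among the adult beta chains, Hbb-bs (ENSMUSG00000052305; chr7:103475730-103482989) was the more abundant. It was at 185, 87.2, 341, 102 and 73.0 FPKM in WT 1 to 5. It was at 1130.3, 1234, 1146, 1066 and 563 FPKM in cKO 1 to 5. WT 3 was again the highest of its group, cKO 1 to 4 lay close together, and cKO 5 was far below them but above WT 3. The means were 158 ± 111 and 1030 ± 267 FPKM (SD, n = 5 each), and the gene ranked 231 by mean FPKM in WT and 21 in cKO among all genes. The log2 fold change was 2.90 (standard error 0.397, 95% interval 2.03 to 3.78, adjusted p = 0.000258 by limma), which ranked 100 from the highest of the 18742 genes tested.

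Hbb-bt (ENSMUSG00000073940; chr7:103461727-103465047), the second adult beta chain, was at 77.0, 40.9, 159.8, 45.6 and 37.2 FPKM in WT 1 to 5. It was at 438, 439, 358, 502 and 284 FPKM in cKO 1 to 5. Here too WT 3 led its group and cKO 5 was the lowest of the other, with no overlap. The log2 fold change was 2.69 (standard error 0.361, 95% interval 1.9 to 3.49, adjusted p = 0.000232 by limma). For each of the 4 chains, an exact two-sided permutation test on FPKM gave p = 0.00794, the smallest that 5 against 5 libraries allow. Bulk RNA cannot tell a larger share of hemoglobin-making cells from more globin RNA per cell. The lineage depletion is meant to remove such cells once they carry markers of a mature lineage, and how many remained was not measured.

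**Figure D1:**
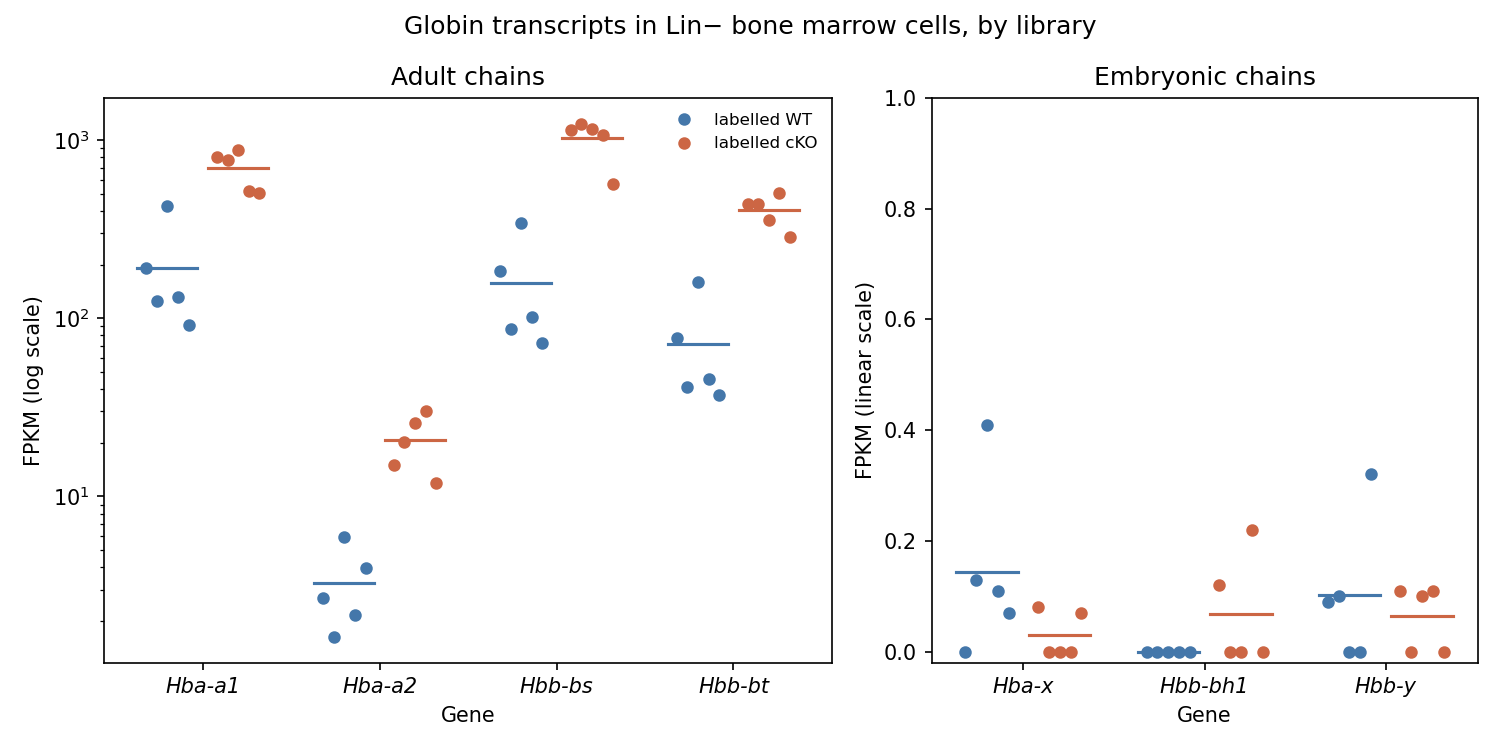
FPKM of the 4 adult chains (left, log axis) and the 3 embryonic chains (right, linear axis), with a point for each library and a line at the group mean, libraries labelled WT in blue and labelled cKO in orange. Every adult chain is higher in all 5 cKO libraries than in any WT library, while no embryonic chain exceeds 0.41 FPKM.

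The 7 chains together took 0.151, 0.0837, 0.302, 0.0914 and 0.0664% of the summed FPKM in WT 1 to 5 and 0.762, 0.783, 0.769, 0.659 and 0.433% in cKO 1 to 5. They were thus a small part of either group's RNA, below 1% even in cKO 2, the library with the most. Scaling all libraries to an equal sum left the 4 log2 fold changes at 2.0 to 2.86, and they were 2.14 to 3.01 above the median of all genes tested. Quantile normalization moved that median from -0.11 to 0.10, and relative to it the 4 changes were 1.80 to 2.79.

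The balance between alpha and beta chains differed as well. The sum of Hba-a1 and Hba-a2 divided by the sum of Hbb-bs and Hbb-bt was 0.738, 0.986, 0.859, 0.907 and 0.864 in WT 1 to 5. In cKO 1 to 5 it was 0.519, 0.476, 0.602, 0.348 and 0.609. All cKO libraries were below all WT libraries, with cKO 4 the lowest. On the log2 scale the mean was -0.21 ± 0.15 in WT and -1.0 ± 0.33 in cKO (SD, n = 5 each), a difference of -0.79. The exact two-sided permutation test gave p = 0.00794, or 0.0397 after Benjamini-Hochberg adjustment over the 5 chain ratios tested. The mean adult alpha sum was 3.65 times as high in cKO as in WT, and the mean adult beta sum 6.23 times. With any single library left out, the difference in the adult alpha to adult beta ratio was -0.86 to -0.66, and the adjusted p was 0.0794 in 8 of those 10 cases, since 4 against 5 libraries cannot give a permutation p under 0.0159. Over the 7 libraries with Xist below 1 FPKM, of which only WT 1 and 2 are WT, the difference was -0.77 (adjusted p = 0.159 by the same exact permutation test, and no smaller raw p than 0.0952 was possible). These are ratios of FPKM, which depend on the gene lengths the authors used and on how fragments of near copies were counted, so they compare libraries and do not give the proportion of chains made.

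The order of the 2 leading genes changed with it. Hba-a1 was above Hbb-bs in all 5 WT libraries, where Hbb-bs was at 0.699 to 0.971 times Hba-a1, and Hbb-bs was above Hba-a1 in all 5 cKO libraries, at 1.12 to 2.07 times. In WT 1 the levels were almost equal. Below them, Hba-a1 was above Hbb-bt in all 10 libraries, by 2.45 to 3.05 times in WT and 1.03 to 2.46 times in cKO, the smallest gap being in cKO 4. WT 3 had a globin level between those of the other WT and the cKO libraries, yet its alpha to beta ratio of 0.859 lay amid the WT values.

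**Figure D2:**
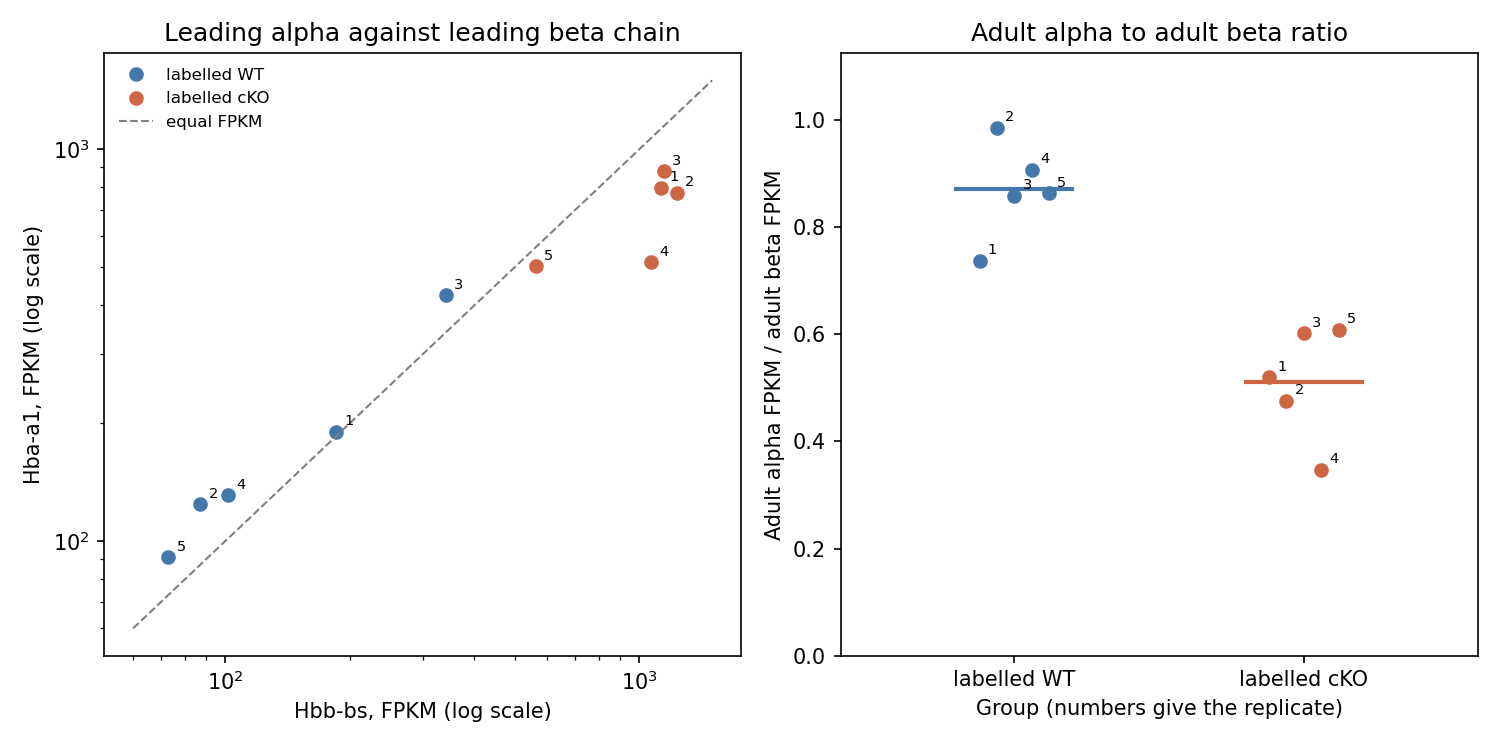
Left, Hba-a1 against Hbb-bs in FPKM on log axes, a point per library with its replicate number and a dashed line where both are equal; right, adult alpha over adult beta FPKM per library, with group means as lines. The WT libraries lie above the dashed line and at ratios of 0.738 to 0.986, the cKO libraries below it and at 0.348 to 0.609.

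Within each adult pair the shares overlapped between groups. Hba-a1 was 98.6, 98.7, 98.6, 98.4 and 95.8% of adult alpha FPKM in WT 1 to 5 and 98.2, 97.5, 97.1, 94.5 and 97.7% in cKO 1 to 5. WT 5 and cKO 4 were the low libraries, and the difference of means of -1.04 percentage points had an adjusted p of 0.302 by the exact permutation test. Without WT 5 that difference was -1.59 points and passed (adjusted p = 0.0397, exact permutation test). Hbb-bt was 29.4, 31.95, 31.9, 31.0 and 33.7% of adult beta FPKM in WT 1 to 5 and 27.9, 26.2, 23.8, 32.02 and 33.5% in cKO 1 to 5. The share was lowest in cKO 3 and as high in cKO 4 and 5 as in WT, with a difference of -2.90 points (adjusted p = 0.258, exact permutation test). This difference in the Hbb-bt share ran from -4.11 to -1.67 points over 13 alternatives.

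The embryonic chains were at the limit of detection. Hba-x (ENSMUSG00000055609; chr11:32226400-32228116), the embryonic alpha-like chain zeta, was at 0, 0.13, 0.41, 0.11 and 0.07 FPKM in WT 1 to 5 and 0.08, 0, 0, 0 and 0.07 FPKM in cKO 1 to 5. Hbb-bh1 (ENSMUSG00000052217; chr7:103490844-103492371), a beta-like chain of primitive red cells, was listed at 0 throughout WT, and its values in cKO 1 to 5 were 0.12, 0, 0, 0.22 and 0 FPKM. Hbb-y (ENSMUSG00000052187; chr7:103500956-103502423), the embryonic epsilon-like chain, was at 0.09, 0.10, 0, 0 and 0.32 FPKM in WT 1 to 5 and 0.11, 0, 0.10, 0.11 and 0 FPKM in cKO 1 to 5. The highest of these values, Hba-x in WT 3, corresponds to about 5 fragments, and every group overlapped the other. Over the 5 libraries of a group, Hba-x had about 9 fragments in WT and 2 in cKO, Hbb-bh1 0 and 3, and Hbb-y 5 and 3. At this depth 3 fragments, taken as the floor for a library, are worth 0.201 to 0.355 FPKM depending on the gene and library, an allowance for counting error alone. A difference between groups was therefore not detectable for these chains (exact permutation p = 0.135, 0.444 and 0.841), which does not show that the levels were alike.

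Set against the adult chains, embryonic beta-like transcripts were at most 0.29% of all beta-like FPKM in WT (in WT 5) and at most 0.021% in cKO (in cKO 4). The difference of the mean shares was -0.0719 percentage points (adjusted p = 0.258, exact permutation test). Over 13 alternatives that difference ran from -0.092 to -0.0196 points. Hba-x was 0, 0.103, 0.0952, 0.0823 and 0.0735% of alpha-like FPKM in WT 1 to 5 and 0.00982, 0, 0, 0 and 0.0136% in cKO 1 to 5. WT 1 was the only WT library within the cKO range, and the difference was -0.0661 points (p = 0.0476, adjusted p = 0.119, exact permutation test), or -0.0838 points without WT 1 (adjusted p = 0.0397, exact permutation test). The divisor of both shares, the adult chains, was itself higher in cKO.

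The theta globin genes lie beside the alpha genes, and their role is not settled. Hbq1b was at 1.16, 0.91, 3.12, 1.84 and 1.1 FPKM in WT 1 to 5 and 7.08, 6.42, 10.2, 6.74 and 3.12 FPKM in cKO 1 to 5. WT 3 and cKO 5 met at the same value, the highest of WT and the lowest of cKO (log2 fold change 2.02, adjusted p = 0.0011 by limma). Hbq1a, at 0 in 4 WT libraries and 0.21 FPKM in WT 3, was at 0, 0.29, 0.72, 0.33 and 0.73 FPKM in cKO 1 to 5 (log2 fold change 1.70, adjusted p = 0.0366 by limma). With a WT mean of 0.042 and a cKO mean of 0.414 FPKM, Hbq1a reached the mean needed for the test only through cKO, and its log2 fold change ran from 0.42 to 3.59 over 22 alternatives. The log2 fold change of Hbq1a passed without WT 3 and without cKO 1, and missed without each of the other 8 libraries, with adjusted p of 0.0643 to 0.0844 by limma. Of the 9 other globins listed, these were the 2 tested and 2 were called higher, against 4.60% of all genes tested. That count of called globins was kept in 10 of 23 alternatives. Their median log2 fold change was 1.86 (0.15 to 2.84 over the alternatives) against -0.11 over all genes tested, and since Hbq1a entered through its high group neither value is support for the list. Myoglobin (Mb), Hbb-bh0 and Hbb-bh3 were at 0 throughout, and Hbb-bh2, Cygb, Ngb and Adgb did not exceed 0.25 FPKM.

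Promoter stretches are shown because the adult chains of both clusters moved together. RefSeq promoters (GRCm38.p6) were found for 6 of the 8 listed genes, all but Hbb-bh1 and Ahsp, and were placed on GRCm39 by exact match of 300 bases. Those of Hba-a1 and Hba-a2 each matched at 2 places, so the match alone does not place them, and the place closest to the start of the gene's canonical transcript was taken. In the 120 bases before the RefSeq start, 4 short motifs were searched on both strands: CACCC, bound by erythroid Krüppel-like factors; CCAAT, bound by factors named after it; TATAA, bound by the TATA-binding protein; and GATAA, bound by GATA factors. CACCC occurs in 31.8%, CCAAT in 21.2%, TATAA in 11.9% and GATAA in 10.4% of all 32446 such windows. CACCC occurs in Hba-a1, Hba-a2, Hbb-bs and Hbb-bt, and so does CCAAT, and each of these 4 also holds TATAA, within bases -30 to -23 of the start. Hbb-y holds CACCC and also CCAAT. Hba-x holds CACCC, and besides it TATAA and, further up, GATAA. The 300-base RefSeq promoters of Hba-a1 and Hba-a2 share an unbroken run of 297 bases. Capitals mark these letters in bases -35 to -6 of the first 4 stretches and bases -95 to -66 of the last 3.
Hba-a1: ggagggcaTATAAgtgctacttgctgcagg
Hba-x: atgtgtaTATAAaggagacactggggacaa
Hbb-bs: agagcaTATAAggtgaggtaggatcagttg
Hbb-y: gtgaagcataaaaggccaccacttctagca
Hbb-bs: agccaCACCCtggtaagggCCAATctgctc
Hbb-bt: gggtaaCACCCtggcATTGGCCAATctgct
Hbb-y: gggtcaggctgaCCAATagcttcaaagaat
They lie at chr11:32233637-32233666 and chr11:32226565-32226594 (plus strand), and at chr7:103477141-103477170, chr7:103502420-103502449, chr7:103477201-103477230, chr7:103463196-103463225 and chr7:103502480-103502509 (minus strand). In Hbb-bt the letters read CCAAT on both strands side by side. The GENCODE canonical transcripts of these genes begin further upstream than the RefSeq start, so bases of these windows can be annotated as exon 1 there. A match of letters describes the sequence and is not a binding site, and a missing match tells nothing about a factor.

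Around the alpha cluster, 6 protein-coding neighbours within 100 kb had values, and of the 5 tested 0 were called higher and 1 lower. With 4.60% of all genes tested called higher and 16.8% lower, these counts are not a result about the locus. Nprl3, whose introns carry the distal enhancers of the alpha genes, was at 4.42, 3.83, 4.92, 3.95 and 3.89 FPKM in WT 1 to 5 and 8.14, 6.48, 6.91, 7.71 and 5.17 FPKM in cKO 1 to 5. Mpg, a DNA repair glycosylase gene overlapping it in position, was at 3.76, 3.10, 3.12, 3.26 and 2.43 FPKM and 5.49, 6.62, 6.08, 5.43 and 4.86 FPKM. Both were above the WT range in every cKO library, by less than the 2-fold limit (log2 fold changes 0.69 and 0.85, adjusted p = 0.00176 and 0.000509 by limma). Such a separation held for 10.6% of all genes tested, and 16.7% were higher by adjusted p alone. Sh3pxd2b on the far side was lower (log2 fold change -1.26, adjusted p = 0.00799 by limma), while Snrnp25, Rhbdf1 and Il9r showed no such separation.

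The beta cluster lies among olfactory receptor genes, and none of the 13 neighbours within 100 kb reached the test. Of the 7 beyond Hbb-bt, on the side toward which the beta genes are transcribed, 6 were above 0 in some cKO library and 2 in some WT library. Or52z1, the closest to Hbb-bt, was listed at 0 throughout WT, and its values in cKO 1 to 5 were 0.23, 0.09, 0.05, 0.10 and 0.03 FPKM. Or52a5, next to it, was at 0, 0.01, 0, 0 and 0 FPKM in WT 1 to 5 and 0.12, 0.04, 0.06, 0.11 and 0.09 FPKM in cKO 1 to 5. These are about 28.8 and 26.1 fragments over the 5 cKO libraries against 0 and 0.7 over the 5 WT libraries, traces that were above WT in each cKO library. Of the 6 receptor genes on the other side, beyond Hbb-y, 0 were above 0 in any cKO library and 1 in a WT library, at 0.02 FPKM. Near Ahsp, 8 neighbours were tested and Itgad and Tgfb1i1 were called lower (log2 fold changes -2.26 and -2.66, adjusted p = 0.00221 and 0.000857 by limma). Since 16.8% of all genes tested were called lower, this count is not a result about these neighbours.

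Among 34 listed regulators of globin genes, 32 were tested, 1 was called higher and 1 lower. The shares called over all genes tested were 4.60% higher and 16.8% lower. The median log2 fold change of the regulators was 0.20 against -0.11 over all genes. Sox6, which takes part in silencing embryonic beta-like genes in definitive cells, was at 2.99, 2.21, 4.22, 2.19 and 1.85 FPKM in WT 1 to 5 and 7.51, 9.36, 7.18, 10.1 and 6.80 FPKM in cKO 1 to 5. Every cKO library was above every WT library (log2 fold change 1.61, adjusted p = 0.000214 by limma). Arid3a, a DNA-binding protein of the ARID family, was at 15.6, 13.8, 10.9, 14.5 and 15.5 FPKM in WT 1 to 5 and 3.25, 3.16, 5.87, 1.99 and 5.50 FPKM in cKO 1 to 5 (log2 fold change -1.9, adjusted p = 0.000271 by limma), with the groups apart in the other direction. Without any 1 WT library 2 regulators were called higher. The added one may be Lin28b, with means of 0.018 FPKM in WT and 0.172 FPKM in cKO libraries. Such a gene reaches the mean needed for the test only through cKO, so that count is no support.

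Further regulators moved by less than 2-fold. By adjusted p alone, 14 of the 32 were higher and 8 lower, where the shares over all genes tested were 16.7% higher and 28.3% lower. Gata1, the central erythroid factor, was at 48.0 to 77.4 FPKM in WT and 92.0 to 109 FPKM in cKO libraries (log2 fold change 0.81, adjusted p = 0.00036 by limma). Klf1, the factor that binds CACCC letters of the adult beta promoter, overlapped between groups at 68.0 to 118 and 95.2 to 133 FPKM (log2 fold change 0.49, adjusted p = 0.0245 by limma). Bcl11a, another silencer of embryonic beta-like genes, was at 10.95 to 13.85 FPKM in WT and 12.4 to 21.7 FPKM in cKO (0.54, adjusted p = 0.0101 by limma). Myb, a factor of immature progenitors, was at 59.6 to 80.05 FPKM in WT and 31.7 to 46.7 FPKM in cKO (-0.88, adjusted p = 0.000356 by limma), and Nfia was higher by 0.88 (adjusted p = 0.000111 by limma). Lmo2, the most abundant of the list, did not pass (log2 fold change 0.02, adjusted p = 0.819 by limma). Lin28b, an RNA-binding protein of fetal-type blood cells, was below the test's limit at 0 to 0.04 FPKM in WT and 0.12 to 0.30 FPKM in cKO, and Igf2bp1 was at 0 throughout.

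Of 15 genes for heme synthesis and its supply, 4 were called higher and 0 lower, with a median log2 fold change of 0.70. For all genes tested the shares called were 4.60% higher and 16.8% lower. Alas2, the erythroid enzyme of the first step, was at 11.5, 5.27, 18.6, 6.49 and 4.98 FPKM in WT 1 to 5 and 61.2, 60.3, 51.8, 60.5 and 35.1 FPKM in cKO 1 to 5. It repeated the pattern of the adult beta chains, WT 3 highest of WT and cKO 5 lowest of cKO (log2 fold change 2.67, adjusted p = 0.000185 by limma). Alas1, the form used outside the red cell line, was at 34.4, 26.4, 27.4, 32.4 and 33.3 FPKM and 13.1, 5.51, 10.6, 4.12 and 13.2 FPKM (log2 fold change -1.85, adjusted p = 0.000679 by limma), with no overlap. Cpox, Fech and the transporter gene Tspo2 were the other called genes of heme supply, at log2 fold changes of 1.30, 1.19 and 1.09. Of 8 genes for sensing and export of heme, Pgrmc1 was called higher (1.07) and Alas1 lower, with a median of 0.20. Beside the shares of 4.60% and 16.8% over all genes, a single call each way is not a result about that list. Without cKO 4 the count called higher was 0, and without cKO 3 the count called lower was 2.

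For every library the level of Hbb-bs could be set beside Alas2. Hbb-bs was at 16.0, 16.5, 18.3, 15.7 and 14.7 times the FPKM of Alas2 in WT 1 to 5 and 18.5, 20.5, 22.1, 17.6 and 16.1 times in cKO 1 to 5, ranges that overlap. Hba-a1 was at 16.5, 23.7, 22.8, 20.3 and 18.3 times Alas2 in WT 1 to 5 and 13.1, 12.9, 16.98, 8.51 and 14.4 times in cKO 1 to 5, lower in most cKO libraries but with cKO 3 above WT 1. Both sets of values are descriptions and were chosen after the values were seen.

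**Figure D3:**
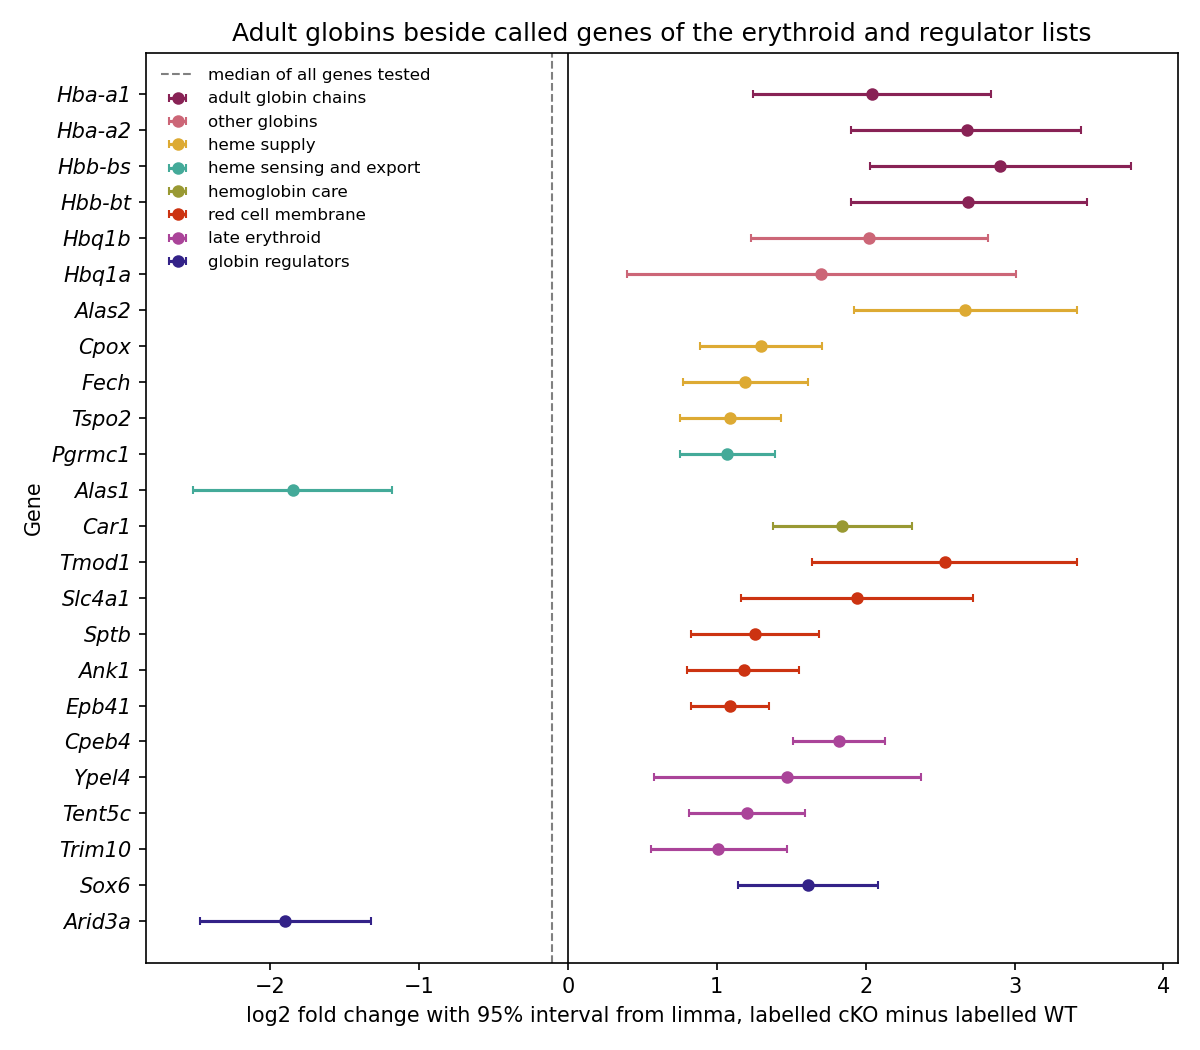
log2 fold change of the adult chains, the called theta globins and called genes, as named in the text, of the lists of heme supply, heme sensing and export, hemoglobin care, red cell membrane, late erythroid genes and globin regulators, with 95% intervals from limma (labelled cKO minus labelled WT); the dashed line is the median of all genes tested. The adult beta chains, Hba-a2, Alas2 and Tmod1 lie above 2.5, and Arid3a and Alas1 lie below 0.

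Genes of the red cell envelope and of hemoglobin care were called in part. Set beside them, 4.60% of all genes tested were called higher and 16.8% lower. Of 17 red cell membrane genes 16 were tested, 7 were called higher and 0 lower, with a median log2 fold change of 0.87. Among them were Tmod1, which caps actin filaments of the membrane skeleton (2.53), the anion exchanger Slc4a1 (1.94), Sptb of the membrane skeleton (1.26), ankyrin (Ank1, 1.18) and Epb41 (1.09). Aqp1, the most abundant of the list, did not pass (-0.22, adjusted p = 0.553 by limma), nor did Rhag (0.17, adjusted p = 0.722 by limma). Of 11 genes that protect hemoglobin or adjust its oxygen binding, 1 was called higher and 0 lower. That gene was the carbonic anhydrase Car1, at 893, 716, 623, 649.6 and 592 FPKM in WT 1 to 5 and 2231, 3156, 1879.5, 3793 and 1805 FPKM in cKO 1 to 5 (log2 fold change 1.84, adjusted p = 0.000115 by limma). Gpx1 and the alpha-hemoglobin ubiquitin ligase Ube2o did not pass (0.14 and 0.27, adjusted p = 0.290 and 0.106 by limma).

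Of 12 late erythroid genes 4 were called higher and 0 lower, with a median log2 fold change of 0.67. Across all genes tested 4.60% were called higher and 16.8% lower. Cpeb4, a translation regulator of terminal erythroid cells, was at 7.59, 9.56, 11.2, 8.35 and 7.59 FPKM in WT 1 to 5 and 29.4, 36.8, 27.0, 38.1 and 26.8 FPKM in cKO 1 to 5, with wide separation (log2 fold change 1.82, adjusted p = 3.78e-05 by limma). Ypel4, Tent5c and Trim10 were the others, at 1.47, 1.20 and 1.01, and Trim10 fell short of the 2-fold limit without WT 2, 4 or 5 or cKO 3 or 5, at 0.89 to 0.99. The mitophagy receptor gene Bnip3l and the factor gene Foxo3, both used during red cell maturation, did not pass (-0.06 and -0.09, adjusted p = 0.753 and 0.233 by limma). The mean log2 level of the red cell membrane list was 0.94 higher in cKO than in WT libraries, while that of Hbb-bs was 2.90 higher. The gap between them was 2.81, 1.76, 3.06, 2.11 and 1.81 in WT 1 to 5 and 4.11, 4.54, 4.74, 4.25 and 3.72 in cKO 1 to 5 on the log2 scale, without overlap. This comparison was not planned. It sets the chain with the largest change against a list that includes genes that did not pass, and is a description only.

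After each group mean was subtracted, likeness to Hbb-bs over the 10 libraries was ranked among 12327 genes that averaged 1 FPKM or more. With the other globin chains left out, the highest were Alas2 (r = 0.985), Tprkb (0.928), Gm11353 (0.927), Gm10252 (0.915) and Orc3 (0.912). Among the chains themselves Hbb-bt had r = 0.956, Hba-a1 0.931 and Hba-a2 0.612. Slc4a1 was at 0.905, Gata1 at 0.740 and Klf1 at 0.349. These values describe how libraries of the same label differ, rest on few libraries, of which WT 3 and cKO 5 lie far from their groups, and carry no test.

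Most listed markers of other blood cells had lower means in the libraries labelled cKO, though not all. For comparison, 16.8% of all genes tested were called lower and 4.60% higher. All 10 monocyte and dendritic genes were called lower, with a median log2 fold change of -4.59 (-5.2 to -3.58 over 23 alternatives). In those alternatives 8 to 10 of these genes were called lower. Their summed FPKM, led by Lyz2, was 1431, 861, 804, 1176 and 1407 in WT 1 to 5 and 51.5, 16.7, 159.7, 5.4 and 229 in cKO 1 to 5. Counts called lower were 8 of 8 for megakaryocytes (led by Ppbp), 6 of 6 for mast cells and basophils (Prss34), 4 of 10 for neutrophils (Mpo), 4 of 6 for B lymphoid (Dntt), 4 of 7 for T and NK (Nkg7) and 6 of 7 for stem and progenitor genes (led by Kit, which was not called). Their medians were -2.48, -1.85, -0.74, -1.95, -1.62 and -2.21. Over 23 alternatives the megakaryocyte median ran from -2.76 to -2.21 and the mast and basophil median from -1.99 to -1.69, but the others moved far more: neutrophil -1.69 to -0.16, B lymphoid -3.33 to -0.52, T and NK -2.35 to -0.80, stem and progenitor -3.15 to -1.23. The counts called lower in these 4 lists ran from 2 to 4, 2 to 5, 1 to 4 and 4 to 7. In those lists 0 genes were called higher. Procr and Mecom of the stem and progenitor list and Igll1 of the B lymphoid list, with cKO means of 0.048, 0.082 and 0.082 FPKM, reached the mean needed for the test only through WT, so their calls add no support to these counts. Other genes went the other way without passing, Ngp, Ltf and Camp with log2 fold changes of 1.43, 1.39 and 0.98 and means of 10.3, 1.75 and 3.84 FPKM in WT and 82.3, 9.20 and 16.6 FPKM in cKO, where cKO 1 alone held most of each mean and cKO 4 was below every WT library, and the T cell genes Cd3e, tested only through its cKO mean, and Cd3g with log2 fold changes of 0.53 and 0.29.

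The summed levels of these lists by library were as follows. The megakaryocyte sum was 280.1, 1295, 892, 755 and 846 FPKM in WT 1 to 5 and 185, 80.7, 108, 98.2 and 160.4 FPKM in cKO 1 to 5, and the mast and basophil sum 1344, 1218, 674, 1235 and 1295 and 577, 184, 222, 81.8 and 301.16 FPKM. The neutrophil sum was 3314, 2725, 2747, 3370.4 and 3698 FPKM in WT and 2594, 180.2, 852, 147 and 1116 FPKM in cKO, where cKO 1 came near the WT range and cKO 2 and 4 were far below it. The late granule genes S100a8, S100a9 and Ngp overlapped between groups. Their cKO means were set largely by cKO 1, and S100a8 and S100a9 had log2 fold changes of -1.24 and -0.20, which did not pass. The B lymphoid sum was 30.8, 35.1, 27.1, 34.3 and 32.4 and 2.31, 1.08, 6.67, 0.86 and 8.32 FPKM, and the T and NK sum 91.3, 79.9, 81.1, 94.0 and 105 and 25.9, 9.11, 19.5, 7.29 and 29.4 FPKM. The stem and progenitor sum was 107, 83.5, 83.6, 107 and 116 FPKM in WT and 37.3, 21.1, 34.5, 22.5 and 43.9 FPKM in cKO. All these sums were lower in each cKO library than in any WT library, the direction opposite to that of the adult globins. Their part in the globin result was not tested.

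Macrophages that nurse red cell precursors in erythroid islands share part of these markers. These 8 genes had a median log2 fold change of -1.61. Of them 0 passed as higher and 6 as lower, where 16.8% of all genes tested were called lower. The count of these genes called lower was 3 without any 1 of WT 2 to 5 or of cKO 1, 2 and 4. It was 8 without cKO 3. The sum of these genes, led by Vcam1, was 29.1, 49.6, 47.1, 46.4 and 49.5 FPKM in WT 1 to 5 and 14.3, 9.04, 32.5, 4.6 and 22.0 FPKM in cKO 1 to 5, with cKO 3 inside the WT range. As for the label of the cells, Kit was at 36.6 to 54.4 FPKM in WT and 18.7 to 31.1 FPKM in cKO libraries, and Cd3e and Ly6g, markers of mature T cells and neutrophils, did not exceed 1.32 FPKM in any library. Other genes of maturing neutrophils were far higher, with S100a9, S100a8, Ngp, Camp and Ltf at 895, 443, 318, 51.2 and 29.1 FPKM in cKO 1, so the low level of Ly6g does not speak for the whole list. In these marker lists 0 genes were at 0 in all libraries.

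**Figure D4:**
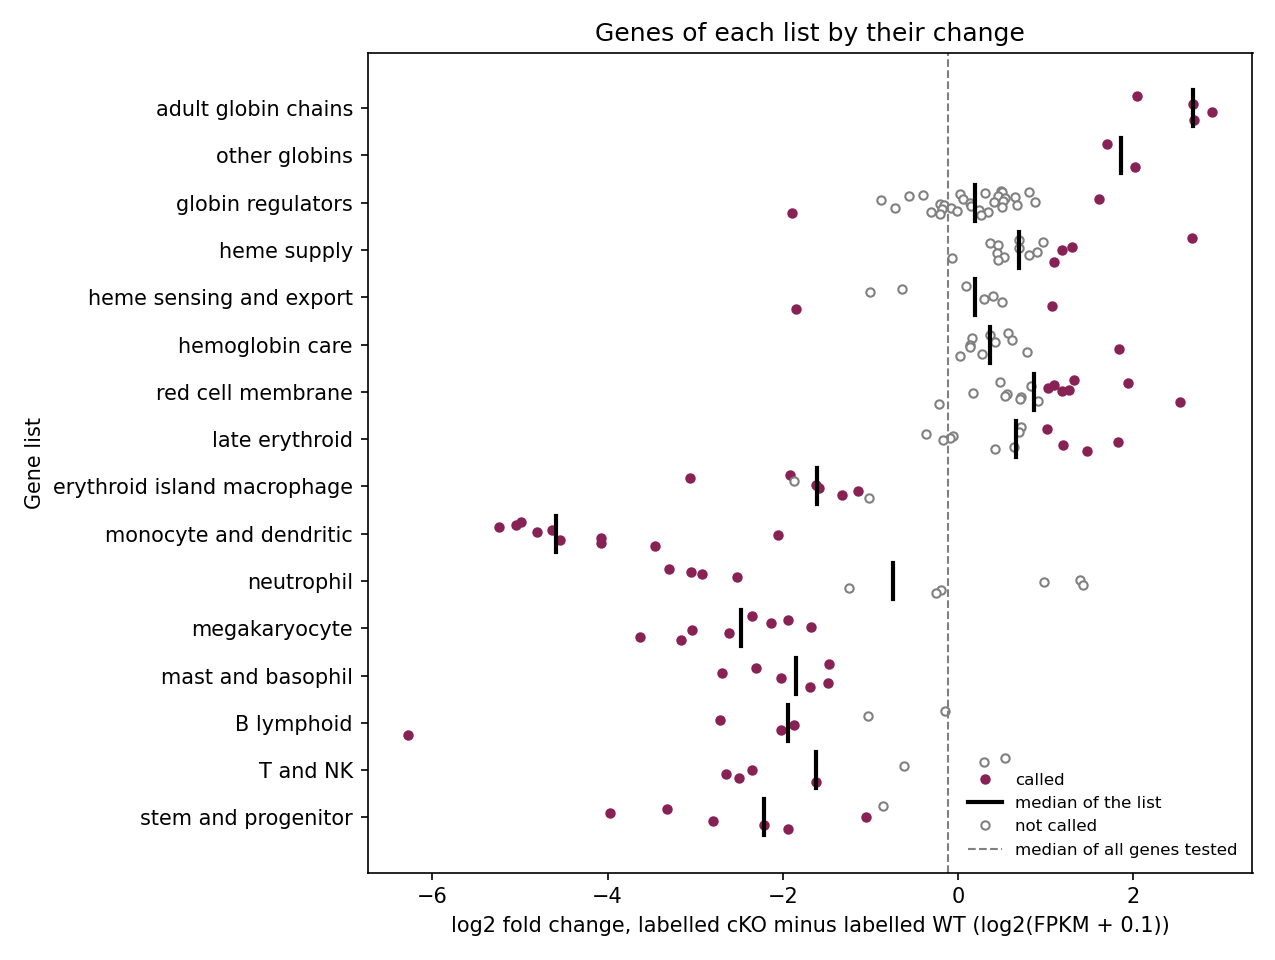
log2 fold change of every tested gene of each list (labelled cKO minus labelled WT), filled where called and open where not, with the list median as a black bar and the median of all genes tested as a dashed line. The adult globin chains have the highest median, and the monocyte and dendritic list the lowest, -4.59.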

How the data were processed

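Per the labels, the authors trimmed reads with cutadapt 1.9.1, aligned them to GRCm39 with HISAT2 2.0.1 and named HTSeq 0.6.1 for counting; the deposited values are FPKM by gene, rounded to 2 decimals, 1 column for each of 10 libraries. The gene lengths behind them and the handling of fragments shared by near copies are not stated. Fragments per library were read from the smallest steps of the FPKM values of single-transcript genes, and floors cover counting error only.

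The 18742 of 55359 genes that averaged 0.1 FPKM or more were tested on log2(FPKM + 0.1) with limma 3.58.1 (R 4.3.3, eBayes with a trend, two-sided), with Benjamini-Hochberg adjustment over all of them. A call needed a 2-fold change or more together with an adjusted p below 0.05. FPKM are not counts, so no count model was run. Chain ratios were compared by exact two-sided permutation tests (scipy 1.17.1, statsmodels 0.14.6, python 3.11.15). Of 6 ratios planned, that of Ahsp could not be run, and over 6 tests the adjusted p of the alpha to beta ratio would be 0.0476. The steps were tested on simulated data.

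The members and lists were chosen with earlier results of these data known. The rule for named genes took the members, Dhx9, Xist, Ddx3y, neighbours within 100 kb, and from each list up to 5 genes by mean FPKM and up to 4 by size of change, every called regulator and other globin, and the 5 genes most like Hbb-bs, Hbb-bh1 and Ahsp. Likeness was not computed for Hbb-bh1, at 0 in most libraries, nor for Ahsp. Gata1, Bcl11a, Lin28b, Igf2bp1, Ube2o, Ank1, Epb41, S100a8, Ngp, Camp, Ltf, Ly6g, Mecom, Cd3g and Cd3e fall outside it and were named after their values were seen. Alternatives changed the pseudocount, the filter, the scaling, the trend, the call rule, a replicate block, an Xist covariate, the libraries with Xist above 1 FPKM, and each library in turn.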

Additional observations from a re-analysis of the deposited data

Results flagged for a closer look

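Of 64 groups of 5 libraries examined, 9 held a library far from the other 4 of its group, where chance gives about 3.2 (about 1 in 20). That rate assumes independent values well above 0. These groups share the same libraries and some hold values at 0, so 9 beside 3.2 does not show an excess. Hbb-bs was at 563 FPKM in cKO 5 and at 1066 to 1234 FPKM in the other cKO libraries. The Hba-a1 share of adult alpha FPKM was 95.8% in WT 5, while WT 1 to 4 lay at 98.4 to 98.7%. It was 94.5% in cKO 4, while the rest of cKO lay at 97.1 to 98.2%. The embryonic share of beta-like FPKM was 0.29% in WT 5 and at most 0.078% in the other WT libraries. The embryonic share of alpha-like FPKM was 0% in WT 1 and 0.0735 to 0.103% in the other WT libraries. Both embryonic shares rest on a few fragments per library.

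Hbq1a was at 0.21 FPKM in WT 3 and at 0 in the other WT libraries. Slc4a1 was at 236 FPKM in cKO 1 and at 125 to 157 FPKM in the other cKO libraries. WT 3 was also high in Sptb, at 37.97 FPKM where the rest of WT lay at 18.5 to 22.1 FPKM. Trim10 was at 26.1 FPKM in WT 3, and the rest of WT lay at 10.1 to 14.5 FPKM.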

How the results depend on the processing

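The 4 adult chains were called higher, and 0 chains lower, in all 23 alternatives, with log2 fold changes of 1.83 to 2.38 (Hba-a1), 2.35 to 3.15 (Hba-a2), 2.69 to 3.24 (Hbb-bs) and 2.52 to 3.04 (Hbb-bt). Over all genes tested, 862 were called higher and 3153 lower. By adjusted p alone these were 3138 and 5300, with a mean of at least 1 FPKM required 462 and 1827, and with a pseudocount of 1 they were 356 and 1486. Higher genes numbered 536 over the libraries with Xist below 1 FPKM and 1514 after quantile normalization, which moved the share of higher genes among those called from 21.5% to 39.7%. The cause was not tested.

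The adult alpha to adult beta ratio kept its direction in all 13 alternatives and its side of the threshold in 2. It was -0.734 as a difference of medians (adjusted p = 0.190, exact permutation test) and -0.768 over the libraries with Xist below 1 FPKM (adjusted p = 0.159, exact permutation test, with 2 WT libraries). With replicate numbers as a block it was -0.792 (adjusted p = 0.312, exact sign flips, which allow no p under 0.0625). Whether replicate numbers pair libraries is not settled. Correlations between libraries of the same number were 0.117, 0.0258, -0.0103, -0.00304 and 0.0929 across genes. Between a WT and a cKO library of different numbers they ran from -0.0974 to 0.0667. Leaving out 1 library gave -0.862 to -0.660, and the ratio kept its call without WT 1 and without WT 5.

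Leaving out 1 library, the Hba-a1 share of adult alpha differed by -1.59 to -0.41 points, passing without WT 5 (adjusted p = 0.0397, exact permutation test), and the embryonic share of alpha-like chains by -0.0838 to -0.0581 points, passing without WT 1 (adjusted p = 0.0397, exact permutation test). Calls of single genes were lost in 12 of 22 alternatives for Hbq1a, and kept in 12 of 23 for Dhx9, 15 for Trim10 and 21 for Ypel4. Embryonic chains had at most 5 fragments per library, so their differences were not detectable at this depth.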

Other observations

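WT 3 was the highest WT library for 4 of 4 adult globin chains, 16 of 16 red cell membrane genes, 13 of 15 heme supply genes and 8 of 12 late erythroid genes, and for 0 of 10 monocyte and dendritic genes. It was the highest WT library for 22.7% of all genes tested. cKO 5 was the lowest cKO library for 4 of 4 adult chains and 8 of 16 red cell membrane genes, against 14.2% of all genes tested. cKO 1 was the highest cKO library for 11 of 15 heme supply genes and 0 of 4 adult chains, against 30.9% of all genes tested.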
